A study of Homo sapiens with 4 samples.

Results

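Cullins are the elongated scaffold proteins of the largest family of ubiquitin ligases, and the 10 genes described here are the cullins CUL1, CUL2, CUL3, CUL4A, CUL4B, CUL5, CUL7 and CUL9 together with DDB1, the adaptor of CUL4 ligases, and RBX1, a RING subunit that most cullins share. The members were taken by gene symbol from the 61806 genes of the count table, and each symbol matched 1 gene. RNA was sequenced in 4 libraries from 2 human cancer cell lines labelled wild type, 1 library for each line and treatment. MDA-MB-231 is labelled as breast cancer cells and MDA-MB-435 as melanoma cells. These are called the breast line and the melanoma line. Each line gave a control library and a library from cells treated with CPYPP, a small-molecule inhibitor of DOCK guanine nucleotide exchange factors, for 6 h. The treatment notes give 10 µM and, like the culture notes, name MDA-MB-435 for all samples, and the vehicle of the controls was not stated. The labels do not say whether the libraries of a line came from separate cultures, so a fold within a line compares 2 libraries, not the conditions.

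In a cullin-RING ligase, the amino-terminal part of the cullin holds an adaptor with a substrate receptor, and the carboxy-terminal part holds the RING protein, which brings the ubiquitin-conjugating enzyme. CUL1 works with SKP1 and F-box proteins, CUL2 and CUL5 with elongins and VHL-box or SOCS-box proteins, CUL3 with BTB-domain proteins such as KEAP1, and CUL4A and CUL4B with DDB1 and its associated WD40 receptors. Attachment of NEDD8 switches the ligases on, the COP9 signalosome takes NEDD8 off, and CAND1 exchanges the receptors. CUL7 and CUL9 are larger relatives with few known partners.

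In the table, whose positions are those of GRCh38, CUL1 lies at chr7:148697914-148801110, CUL2 at chr10:35008504-35127006 and CUL3 at chr2:224470150-224585397. CUL4A lies at chr13:113208193-113267108, CUL4B at chrX:120505920-120604074 and CUL5 at chr11:108008898-108107761. CUL7 (chr6:43037617-43053943, minus strand) and CUL9 (chr6:43182184-43224587, plus strand) are both on chromosome 6, DDB1 is at chr11:61299451-61342596 and RBX1 at chr22:40951347-40973309.

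The libraries held between 17196385 and 22663954 counts. In the 2 melanoma line libraries SOX10 gave 3031 and 707 counts and S100B 1055 and 761, whereas PMEL, MLANA, TYR and TYRP1 gave between 2 and 16 counts. SOX10 and S100B gave at most 1 count in the breast line, and MITF between 690 and 1585 in all 4 libraries. KRT19 gave 3953 and 2225 counts in the 2 breast line libraries against 4 and 0 in the melanoma line. Of the other carcinoma markers only CD44 was not lower there, at 36689 and 27990 counts in the melanoma line against 27537 and 20016. KRT18, CAV1 and LAMB3 were lower but still abundant, at 5740, 16991 and 3625 counts in its control against 8212, 27827 and 6628. KRT8, KRT7 and EPCAM gave 522, 625 and 2 counts in its control against 12813, 14488 and 387. The summed leukocyte markers reached at most 2.06 CPM (counts scaled to the effective library size) and the endothelial markers at most 6.04, the latter mostly KDR in the breast line. The summed melanocyte markers were 261 CPM in the melanoma line control and 144 CPM with CPYPP, and 72.9 and 44.7 CPM in the breast line. SOX10 alone went from 128 to 36.6 CPM in the melanoma line. The part of these shifts in the cullin values was not tested.

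CUL1, scaffold of the SCF ligases, was the only member called in the effect common to both lines. Its counts were 3379 in the breast line control and 3522 with CPYPP, and 4195 and 4978 in the melanoma line. The raw count was higher with CPYPP in both lines although both CPYPP libraries were the shallower. After scaling for depth and composition, CUL1 stood at 151 and 213 CPM in the breast line and at 177 and 258 CPM in the melanoma line, so that both CPYPP libraries lay above both controls. The fold was 1.41 (95% counting interval 1.35 to 1.48) in the breast line and 1.45 (1.39 to 1.51) in the melanoma line. The common effect was a rise of 0.52 on the log2 scale (SE 0.11, edgeR quasi-likelihood test with the line as a block, adjusted p = 0.0174 over 16801 genes). Of all genes tested, 4.39% were called higher and 2.85% lower, so 1 member of 10 higher and 0 lower is not a finding about the group. With DESeq2 the members called were 2 higher, CUL1 and CUL3, and 1 lower, CUL4B, beside 10.1% higher and 6.91% lower of the 12566 genes to which it gave an adjusted p. At an unadjusted p under 0.05, the edgeR fit had 2 members higher, CUL1 and CUL3, and 2 lower, CUL4B and CUL9, beside 10.7% and 10.4% of all genes. The 2 lines are the only replication of the treatment, which leaves 1 residual degree of freedom, and in bulk RNA fewer cells and less RNA per cell cannot be told apart.

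**Figure D1:**
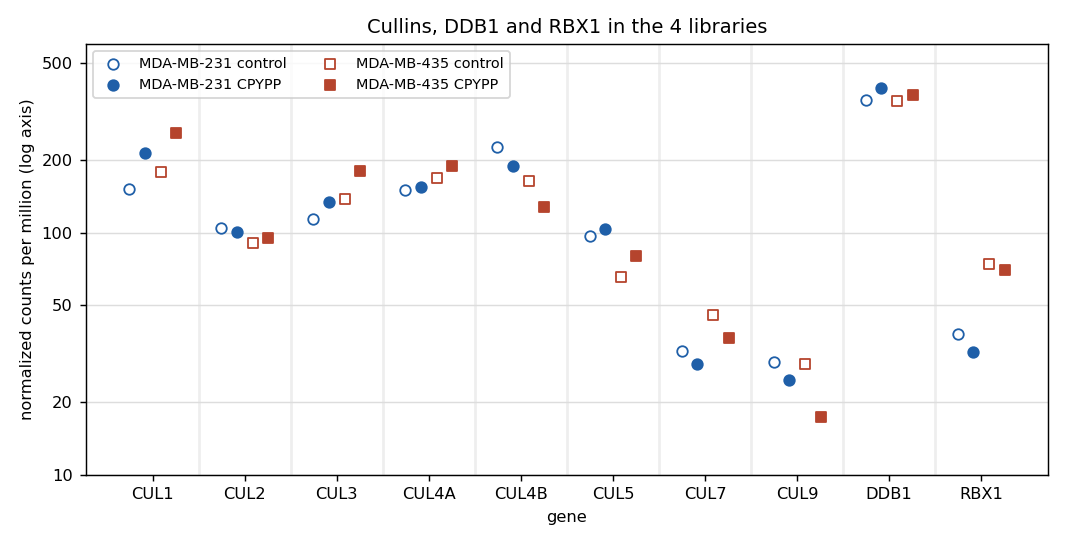
Normalized CPM (log axis) of the 8 cullins, DDB1 and RBX1 in the 4 libraries, with open symbols for control, filled symbols for CPYPP, circles for MDA-MB-231 and squares for MDA-MB-435. CUL1 lies higher in both CPYPP libraries (213 and 258 CPM) than in both controls (151 and 177 CPM), while CUL4B and CUL9 lie lower with CPYPP in each line.

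CUL3, scaffold of the BTB ligases, gave values above the control in both lines but missed the threshold. Its counts were 2554 and 2211 in the breast line and 3251 and 3473 in the melanoma line, control first. The fold was 1.17 (1.11 to 1.24) in the breast line and 1.31 (1.246 to 1.37) in the melanoma line, and the common log2 effect was 0.31 (SE 0.11, edgeR adjusted p = 0.129). With a DESeq2 Wald test on the same design the adjusted p was 0.0255. KEAP1, the CUL3 receptor that targets NRF2, had folds of 1.22 (1.13 to 1.31) and 1.36 (1.29 to 1.44) and an adjusted p of 0.0813 in the edgeR fit, and was singled out after its values were seen.

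CUL2 and CUL5 share the elongin adaptors and showed smaller values. CUL2 counts were 2338 and 1664 in the breast line and 2139 and 1839 in the melanoma line, with folds of 0.965 (0.905 to 1.03) and 1.05 (0.988 to 1.12), both intervals including no change. CUL5 counts were 2171 and 1705 in the breast line and 1556 and 1545 in the melanoma line. Its fold was 1.06 (0.998 to 1.13) in the first line and 1.22 (1.13 to 1.30) in the second. The common log2 effects were 0.01 for CUL2, a sign that turned with total counts and with upper-quartile scaling, and 0.18 for CUL5 (SE 0.11 and 0.12, edgeR adjusted p = 0.977 and 0.420). CUL2 counts per CUL5 count, a ratio that needs no scaling between libraries, went from 1.08 to 0.976 in the breast line, a change of 0.906-fold (0.828 to 0.992), and from 1.37 to 1.19 in the melanoma line, a change of 0.866-fold (0.787 to 0.952).

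**Figure D2:**
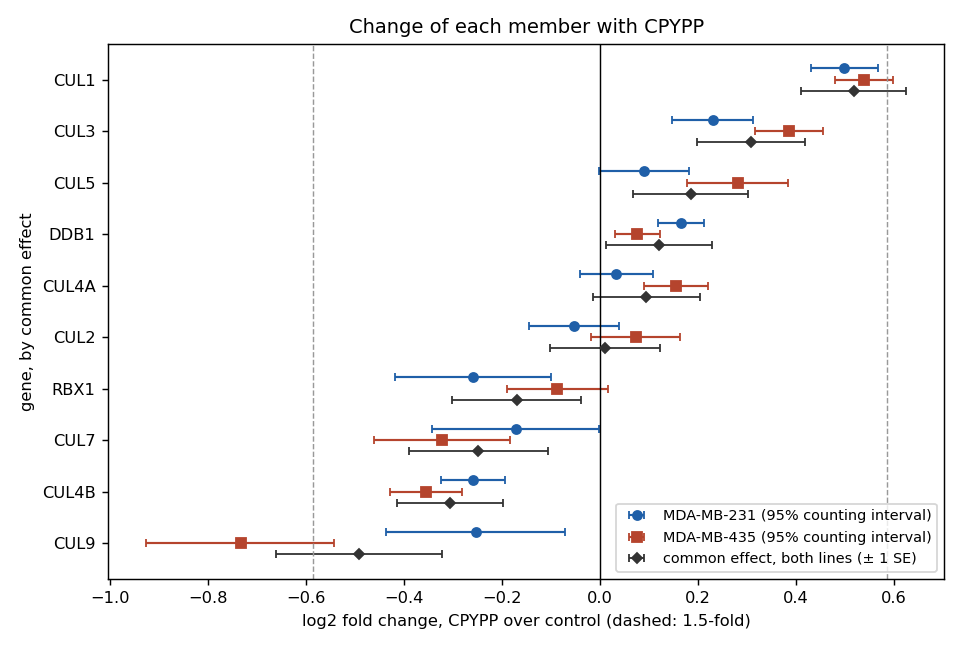
Log2 fold change with CPYPP over control for each member, ordered by the common effect. Circles and squares show MDA-MB-231 and MDA-MB-435 with 95% counting intervals, diamonds the common effect ± 1 SE, and dashed lines a 1.5-fold change; only CUL9 in MDA-MB-435 (-0.73) lies past a dashed line.

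The paralogs CUL4A and CUL4B, which both carry DDB1, differed in their values. CUL4A counts were 3355 in the breast line control, 2534 with CPYPP, and 3986 and 3629 in the melanoma line. CUL4B counts were 5020 and 3096 in the breast line and 3853 and 2464 in the melanoma line. The scaled CUL4B level was thus below its own control in each line, and the melanoma line control (163 CPM) was below both breast line libraries (224 and 188 CPM).

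CUL4A folds were 1.02 (0.972 to 1.08) in the breast line and 1.11 (1.06 to 1.17) in the melanoma line, and CUL4B folds were 0.836 (0.799 to 0.874) and 0.783 (0.744 to 0.823). In the common effect CUL4A had a log2 value of 0.10 (SE 0.11) and CUL4B of -0.31 (SE 0.11), and neither passed (edgeR adjusted p = 0.692 and 0.125). CUL4B did pass with total counts as library sizes (adjusted p = 0.0316) and with DESeq2 (adjusted p = 0.00133). Under total counts the CUL4A value in the breast line turned to -0.03 on the log2 scale.

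Within each library, the number of CUL4A counts per CUL4B count went from 0.668 to 0.818 in the breast line and from 1.03 to 1.47 in the melanoma line. The change was 1.22-fold (1.14 to 1.31) in the first line and 1.42-fold (1.33 to 1.52) in the second, so the pair shifted toward CUL4A in both lines beyond counting error. This pair and the other ratios were chosen after the values were seen, and their change was not tested across the lines. The ratio compares how counts were shared and not levels, since the 2 genes differ in length.

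**Figure D3:**
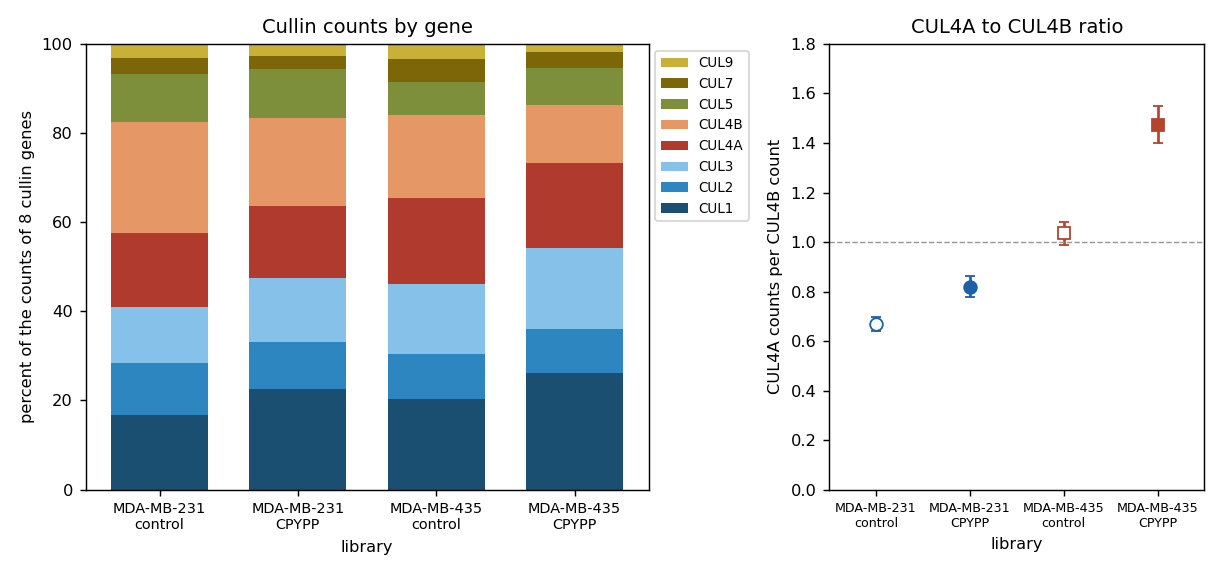
Left, the percent of all counts of the 8 cullin genes that fell on each gene in the 4 libraries; right, CUL4A counts per CUL4B count with 95% counting intervals, with symbols as in the plot of levels. CUL1 took 16.7% and 22.6% of cullin counts in the MDA-MB-231 control and CPYPP libraries and 20.2% and 26.2% in MDA-MB-435, while CUL4B went from 24.9% to 19.8% and from 18.6% to 12.99%.

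Summed over the 8 cullins, the level was 903 CPM in the breast line control and 946 CPM with CPYPP, and 877 and 981 CPM in the melanoma line. CUL4B held the largest share of cullin counts in the breast line control, 24.9% (exact binomial 95% interval 24.3 to 25.5). CUL1 held the largest share in the other 3 libraries, up to 26.2% (25.6 to 26.9) in the melanoma line with CPYPP, and in the melanoma line control its share (20.2%, 19.7 to 20.8) and that of CUL4A (19.2%, 18.7 to 19.8) had overlapping intervals. Shares of counts depend on gene length as well as on abundance.

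The longest coding transcripts of the 2 CUL4 genes had only short exact matches. The exon lengths in the file are longer, 7813 bases for CUL4A and 33815 for CUL4B, and those exon models were not compared. The longest run of bases that the longest coding transcripts of CUL4A (5666 bases) and CUL4B (4902 bases) have in common is 23 bases, in the coding part of both, at positions 287 to 309 of the CUL4A transcript and 897 to 919 of the CUL4B transcript. It is shown as the longest exact match between these 2 transcripts.
CUL4A and CUL4B shared run: tgcagacaaatgatcatgatcag

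Between these transcripts of CUL4A and CUL4B no 50-base stretch was shared. The only pair of members with shared 50-base stretches was CUL7 and CUL9, with 29 of 5455 stretches in CUL7 and 29 of 7731 in CUL9, and CUL4A shared 18 of 5617 with genes that are no members.

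Neighbouring genes can share reads where strand is not used in counting, and the strand setting was not given. The span of CUL4B overlaps MCTS1 on the opposite strand, with 0 exon bases in common in GENCODE release 29. That release gives CUL4B 7031 exon bases against 33815 in the file, so the overlap in the annotation used for counting is not known. The MCTS1 folds were 0.799 and 0.859 in the breast line and the melanoma line. CUL4A shares 437 of 7869 exon bases with PCID2 on the opposite strand, whose folds were 0.730 and 0.876. CUL7 shares 329 of 5628 exon bases with antisense KLC4, which gave between 172 and 227 counts per library. DDB1 shares 521 of 13950 with antisense TKFC, which gave between 93 and 1125 counts. CUL3, CUL5 and CUL9 share exon bases with unnamed antisense genes that gave at most 2 counts per library. CUL1 shares 385 of 3548 exon bases with the unnamed antisense gene ENSG00000273314, which gave between 17 and 65 counts per library, far below CUL1.

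The promoters are printed for CUL1, the member that passed the test, and for the CUL4 pair, whose values differed from each other. Neither gene of the pair was called in the edgeR fit. Each is the 250 bases before a start site in RefSeq (GRCh38.p14), taken for the listed start nearest to that of the longest coding transcript, from 5 listed starts for CUL1, 4 for CUL4A and 4 for CUL4B. Capitals mark matches on either strand to GGGCGG, the GC box, to TGACG, the core of the CRE, or to TGACNNNGC, the antioxidant response element. The CUL1 window lies on the plus strand at chr7:148698653-148698902, the CUL4A window on the plus strand at chr13:113208522-113208771 and the CUL4B window on the minus strand at chrX:120560963-120561212.
CUL1 promoter: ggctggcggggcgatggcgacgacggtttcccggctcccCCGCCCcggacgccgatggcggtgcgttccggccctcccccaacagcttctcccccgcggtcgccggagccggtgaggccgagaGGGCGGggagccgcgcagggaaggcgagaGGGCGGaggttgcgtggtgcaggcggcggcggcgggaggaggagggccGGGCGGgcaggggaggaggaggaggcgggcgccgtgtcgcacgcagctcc
CUL4A promoter: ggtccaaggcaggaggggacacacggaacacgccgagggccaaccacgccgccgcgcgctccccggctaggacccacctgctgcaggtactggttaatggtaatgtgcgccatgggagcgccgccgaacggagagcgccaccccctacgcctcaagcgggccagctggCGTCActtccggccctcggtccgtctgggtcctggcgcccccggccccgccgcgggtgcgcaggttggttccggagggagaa
CUL4B promoter: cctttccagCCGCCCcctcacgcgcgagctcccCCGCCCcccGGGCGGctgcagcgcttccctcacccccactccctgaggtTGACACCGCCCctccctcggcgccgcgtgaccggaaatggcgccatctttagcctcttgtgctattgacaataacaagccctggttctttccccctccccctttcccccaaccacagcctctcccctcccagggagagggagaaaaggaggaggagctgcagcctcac

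GC boxes were found 4 times in the CUL1 window, 4 times in the CUL4B window and 0 times in the CUL4A window, which held 1 CRE core. The counts depend on the start chosen: another CUL4A window (chr13:113209363-113209662) held 8 GC boxes, and another CUL1 window (chr7:148698395-148698694) held 1 GC box and 1 match to GAANNTTC. The GC box was present in 45.0% of 35116 RefSeq promoter windows of 300 bases, the CRE core in 24.6% and the antioxidant response element in 13.3%. The element in the CUL4B window overlaps its last GC box. Searches on both strands for GAANNTTC and TTCNNGAA (heat shock element pairs), TGATGNAA (ATF4 element), CACGTG (E-box) and CCAAT (NFY box) gave 0 matches in these 3 windows, and these motifs were present in 6.77%, 7.74%, 3.62%, 7.26% and 34.6% of the windows. These matches are a description of the letters only.

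CUL7 and CUL9, the large relatives, had few counts and values below the control in both lines. CUL7, which forms a ligase with FBXW8, gave 722 and 473 counts in the breast line and 1081 and 707 in the melanoma line. Its folds were 0.888 (0.789 to 0.998) and 0.8004 (0.727 to 0.881), with a common log2 effect of -0.25 (SE 0.14, edgeR adjusted p = 0.368). CUL9, a cytoplasmic p53-binding protein also called PARC, gave 654 and 405 counts in the breast line and 681 and 335 in the melanoma line. Its melanoma line CPYPP library was the lowest of the 4, at 17.3 CPM against 24.5 to 29.2 CPM in the others.

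The CUL9 fold was 0.839 (0.740 to 0.951) in the breast line and 0.602 (0.527 to 0.687) in the melanoma line, where CUL9 was the only member past a fold of 1.5 in either direction. With TMM within each line CUL1 was past this fold there as well. In the melanoma line, 20.7% of 16527 genes lay below this fold and 8.69% above it (29.4% together), and in the breast line 12.1% of 16441 genes lay below and 12.0% above (24.1% together), where 0 members did. The common log2 effect of CUL9 was -0.49 (SE 0.17, edgeR adjusted p = 0.117), and the adjusted p with total counts was 0.0319. CUL1 counts per CUL9 count went from 5.17 to 8.70 in the breast line, a change of 1.68-fold (1.47 to 1.93). In the melanoma line they went from 6.16 to 14.9, a change of 2.41-fold (2.10 to 2.78). This pair, chosen after the values were seen, joins the largest common rise and the largest common fall of the members. Its shift therefore adds nothing to the values of the 2 genes.

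DDB1, which also acts in DNA repair with DDB2, had the most counts of any member in each library. Its counts were 7849 and 6496 in the breast line and 8279 and 7132 in the melanoma line. The fold was 1.12 (1.09 to 1.16) in the breast line and 1.05 (1.02 to 1.09) in the melanoma line, and the common log2 effect was 0.12 (SE 0.11, edgeR adjusted p = 0.596). DDB1 counts per CUL4B count were higher with CPYPP by 1.34-fold (1.27 to 1.42) and 1.35-fold (1.27 to 1.43), from 1.56 to 2.10 and from 2.15 to 2.89.

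RBX1 recruits the ubiquitin-conjugating enzyme to CUL1, CUL2, CUL3 and the CUL4 pair. Its counts were 856 and 528 in the breast line and 1753 and 1349 in the melanoma line, so both libraries of the second line lay above both of the first. The folds were 0.836 (0.749 to 0.933) and 0.942 (0.877 to 1.01), with a common log2 effect of -0.17 (SE 0.13, edgeR adjusted p = 0.524). CUL1 counts per RBX1 count went from 3.95 to 6.67 in the breast line, a change of 1.69-fold (1.499 to 1.91), and from 2.39 to 3.69 in the melanoma line, a change of 1.54-fold (1.42 to 1.68). RNF7, the RING partner of CUL5, had folds of 0.960 (0.859 to 1.07) and 1.03 (0.958 to 1.11), and was singled out after its values were seen.

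Over the 10 members the median log2 fold change was -0.01 in the breast line and 0.07 in the melanoma line, beside -0.02 and -0.09 over all genes tested in each line. In the breast line 5 of 10 members were below the control, beside 52.2% of all genes, and in the melanoma line 4 of 10, beside 58.1%. The 5 genes CUL1, CUL3, CUL4A, CUL5 and DDB1 were above the control in both lines, a pattern that 30.2% of 14262 genes had. The 4 genes CUL4B, CUL7, CUL9 and RBX1 were below it in both, as were 37.4% of genes. CUL2 had opposite signs in the lines. The sign of CUL4A in the breast line and of CUL2 in the melanoma line turned under another scaling.

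The fold differed between the lines beyond counting error for 5 members, and which members did depended in part on the scaling. The share of all genes whose fold differed in this way is not given here, so this count is not a finding about the group. Relative to the breast line, the fold in the melanoma line was 1.11 times as large for CUL3 (1.03 to 1.201), 1.09 times for CUL4A (1.02 to 1.17) and 1.14 times for CUL5 (1.04 to 1.26). It was 0.717 times as large for CUL9 (0.597 to 0.862) and 0.940 times for DDB1 (0.898 to 0.984). The DDB1 interval included 1 with DESeq2 size factors and with TMM within each line, and the intervals of the other 4 stayed off 1 under each of the 4 other scalings. The CUL2 interval left 1 with DESeq2 size factors, upper quartile and TMM within each line, that of RBX1 with DESeq2 size factors and TMM within each line, and that of CUL4B with total counts. For CUL1 the ratio of folds was 1.03 (0.965 to 1.09), an interval that left 1 with TMM within each line. These intervals hold counting error only, and no interaction could be tested with 1 library per group.

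The same edgeR fit gave the difference between the lines with treatment as a block. RBX1 was 1.04 log2 units higher in the melanoma line (SE 0.13, edgeR adjusted p = 6.31e-05), CUL7 0.43 higher (SE 0.14, adjusted p = 0.0219) and CUL3 0.35 higher (SE 0.11, adjusted p = 0.0185). CUL4B was lower by 0.51 log2 units, at -0.51 (SE 0.11, edgeR adjusted p = 0.00197), and CUL5 at -0.47 (SE 0.12, adjusted p = 0.00521). Over all genes 30.5% were called higher and 32.4% lower in the melanoma line, 62.9% together, so 3 and 2 of 10 members are no more than the background. Line and library preparation of each line cannot be told apart.

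Levels between genes were compared per length, as FPKM (counts scaled to gene length and library size) from the exon length in the file. By this length CUL1 had the highest FPKM in each library, from 36.4 in the breast line control to 62.0 in the melanoma line with CPYPP, and CUL9 the lowest, from 2.39 to 1.42 in the same libraries. DDB1 lay at 22.6 to 25.4 FPKM and CUL4A at 19.2 to 24.0 FPKM, ranges that overlap. RBX1 moved from 10.3 and 12.4 FPKM in the breast line to 22.6 and 24.0 FPKM in the melanoma line, where it lay among DDB1 and CUL4A.

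The order of CUL4B depended on the length used. The file gives CUL4B an exon length of 33815 bases, whereas its longest coding transcript has 4902, and DDB1 has 15516 against 4506. CUL4B stood at 3.77 to 6.64 FPKM by the exon length, below CUL4A, and at 26.0 to 45.8 FPKM by the transcript length. The FPKM of CUL4A over that of CUL4B in the breast line control was 2.89 by the first length and 0.578 by the second. By transcript length DDB1 had the highest FPKM in 3 of the 4 libraries, and CUL1 was higher only in the melanoma line with CPYPP, at 84.0 against 81.9. CUL9 was lowest and CUL7 next to lowest by transcript length in each library.

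The partners and regulators of the ligases were read in 10 lists with 171 genes, of which 170 were tested. The lists also hold MDM2 and CYLD, which are no cullin partners. In the common effect 16 were called higher and 6 lower, 12.9% in all, beside 7.23% of all genes tested. The median log2 fold change of the lists was 0.02, beside -0.04 over all genes. With DESeq2, 30 list genes were called higher, beside 10.1% of the genes it tested over the whole table.

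Among 36 genes of the CUL1 adaptor and F-box list, 1 rose and 3 fell (2.78% and 8.33%, beside 4.39% and 2.85% of all genes). FBXO30, an F-box protein, rose the most of all list genes, from 1076 to 4632 counts in the breast line and from 741 to 4987 in the melanoma line. The folds were 5.83 (5.46 to 6.24) and 8.24 (7.62 to 8.91), with a common log2 effect of 2.79 (SE 0.14, edgeR adjusted p = 3.4e-06). SKP2, which targets the CDK inhibitor p27, fell from 1508 to 578 and from 2077 to 827 counts, with folds of 0.519 and 0.487 (common log2 effect -0.99, SE 0.13, edgeR adjusted p = 0.00164). CCNF, or cyclin F, fell with folds of 0.525 and 0.335, and FBXL5, a receptor for iron regulatory protein, with folds of 0.796 and 0.561 (log2 effects -1.25 and -0.58). SKP1, the adaptor itself, had folds of 1.05 (0.965 to 1.14) and 1.48 (1.34 to 1.64) and missed the threshold (edgeR adjusted p = 0.275).

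**Figure D4:**
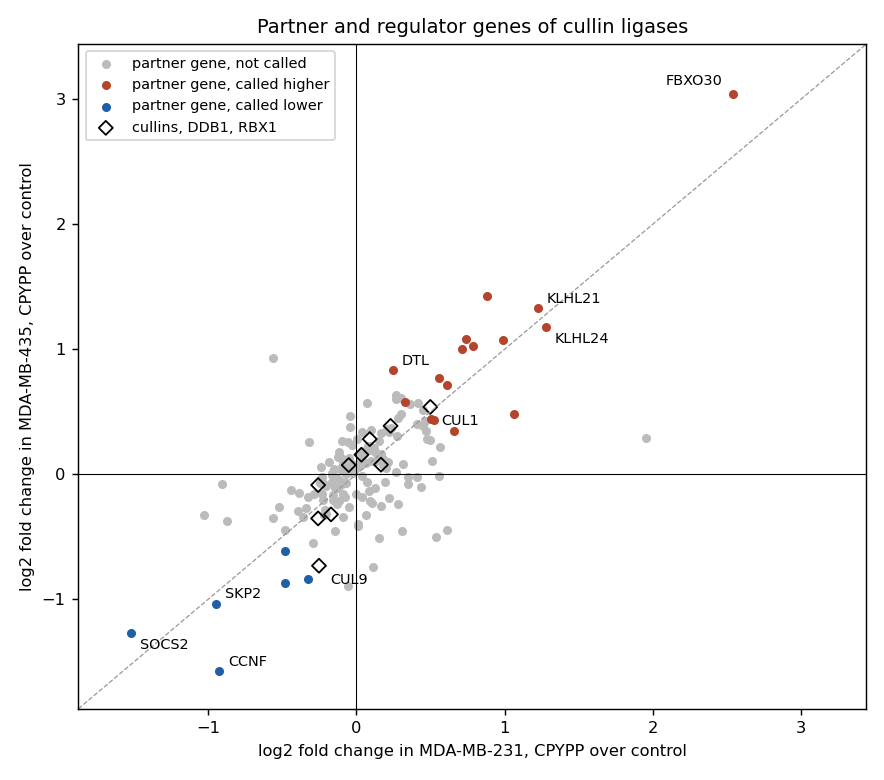
Log2 fold change with CPYPP over control in MDA-MB-231 (horizontal) and MDA-MB-435 (vertical). Filled points are the 165 list genes with at least 10 counts in a library of each line, coloured where called in the common effect. They include MDM2 and CYLD, which are no cullin partners. Open diamonds are the 10 members, and the dashed line marks equal change. FBXO30 stands apart at the upper right with folds of 5.83 and 8.24, SOCS2 and CCNF lie at the lower left, and the members lie near the centre.

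In the CUL3 list of BTB receptors 6 of 30 tested genes rose and 1 fell (20% and 3.33%, beside 4.39% and 2.85% of all genes). KLHL21, which acts in cytokinesis, had 1390 and 2396 counts in the breast line and 2581 and 5301 in the melanoma line, with folds of 2.34 and 2.51 (log2 effect 1.28, SE 0.11, edgeR adjusted p = 0.000133). KLHL24 and KLHL25 rose with log2 effects of 1.23 and 1.16. ENC1 fell, with folds of 0.716 and 0.548 (log2 effect -0.67, SE 0.13, edgeR adjusted p = 0.0109).

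In the list of CUL2 and CUL5 receptors 4 of 36 genes rose and 1 fell. These are 11.1% and 2.78%, beside 4.39% and 2.85% of all genes. FEM1C, a CUL2 receptor that reads carboxy-terminal degrons, rose with folds of 1.72 and 2.04 (log2 effect 0.90, SE 0.13, edgeR adjusted p = 0.00266), and SPSB1, APPBP2 and SOCS4 rose with log2 effects of 0.77, 0.48 and 0.47. SOCS2, a CUL5 receptor that damps growth hormone signalling, fell from 721 to 185 and from 398 to 135 counts (log2 effect -1.40, SE 0.18, edgeR adjusted p = 0.00166). VHL, the CUL2 receptor of hypoxia-inducible factor, had folds of 1.06 (0.971 to 1.16) and 0.912 (0.828 to 1.01), and was singled out after its values were seen.

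Of 26 CUL4 receptors 1 rose and 1 fell (3.85% each, beside 4.39% and 2.85% of all genes). DTL, which acts in replication, rose with folds of 1.19 and 1.78 (log2 effect 0.54, SE 0.14, edgeR adjusted p = 0.0492), a call lost with DESeq2 (adjusted p = 0.0576) and limma-voom (adjusted p = 0.0625). DDB2, the damage sensor that binds DDB1, fell with folds of 0.716 and 0.652 (log2 effect -0.55, SE 0.15, edgeR adjusted p = 0.0468), lost with limma-voom (adjusted p = 0.0509).

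Genes that load and recycle the ligases were read in short lists, beside 4.39% of all genes called higher and 2.85% lower. The share called higher was 20% for neddylation, 10% for the COP9 signalosome and 11.1% for RING partners and enzymes. Each of these shares rests on 1 or 2 genes. Of 10 neddylation genes 2 rose, the NEDD8 ligase subunits DCUN1D3 and DCUN1D2 (log2 effects 0.87 and 0.66, edgeR adjusted p = 0.0115 and 0.0249), and 0 fell. NEDD8 itself had folds of 0.851 (0.784 to 0.924) and 0.983 (0.903 to 1.07), chosen after its values were seen. Of 10 COP9 signalosome genes COPS2 rose (log2 effect 0.45, SE 0.11, edgeR adjusted p = 0.0391), and of 9 RING partners and ubiquitin-conjugating or ARIH enzymes UBE2D1 rose (log2 effect 0.66, SE 0.14, edgeR adjusted p = 0.0188).

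Of 6 exchange factors and inhibitors 0 were called, beside 7.23% of all genes tested. CAND2 had the largest value, a log2 effect of 0.17 (SE 0.55, edgeR adjusted p = 0.908) from 9 to 27 counts per library. CAND1 had folds of 0.936 (0.897 to 0.977) and 1.09 (1.04 to 1.14), chosen after its values were seen. Of 5 genes, partners of CUL7 and CUL9 or the cullin-like and RING subunits of the anaphase-promoting complex, 0 were called, beside the same 7.23%. CCDC8, which binds CUL7, gave 235 and 101 counts in the breast line and 0 in both melanoma line libraries (log2 effect -0.77, SE 0.45, edgeR adjusted p = 0.379). MDM2, the RING ligase of p53, and CYLD, a deubiquitinase, are no cullin partners and had log2 effects of 0.21 and 0.17 (SE 0.14 and 0.13, edgeR adjusted p = 0.452 and 0.502).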

How the data were processed

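Poly(A) RNA was sequenced from 4 libraries, 1 per line and treatment. The authors deposited 1 table of raw read counts per gene. The submitters' processing notes name cutadapt 1.9.1, HISAT2 2.2.1, HTSeq 0.6.1, DESeq2 and the build GRCh37.p13, whereas the positions in the table overlapped those of GENCODE release 29 (GRCh38) for 58241 of 58254 shared gene IDs. The strand setting and annotation version were not given in the sources used here. The members and lists were chosen with earlier results of these data known.

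Genes were kept with filterByExpr and scaled with TMM. The common effect was fitted in edgeR 4.0.16 (quasi-likelihood, line as a block, Benjamini-Hochberg over all genes, called at an adjusted p under 0.05). DESeq2 1.42.0 and limma 3.58.1 were alternatives. Folds within a line are ratios of scaled counts for genes with at least 10 counts in 1 of the 2 libraries, with 95% exact (Clopper-Pearson) intervals, and were called past a fold of 1.5. The intervals cover counting error only. Named list genes were those called, at most 4 per direction and list by size, or the largest value where none was called, with SKP2, MDM2 and CYLD. 1 list gene that this rule names is not reported here. In simulated counts for the common effect on 16470 genes, 26.6% of genes changed by a log2 of 0.585, 56.5% of those changed by 1 and 93.0% of those changed by 2 were recovered.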

Additional observations from a re-analysis of the deposited data

How the results depend on the processing

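CUL1 kept its direction and its call under the other scalings, filters and tools with the line as a block. Without the block 0 members were called higher, and 0 genes in all (167 at an unadjusted p under 0.05). DESeq2 called 2 members higher (CUL1 and CUL3), 1 lower (CUL4B) and 30 list genes higher. Total counts called 2 members lower (CUL4B and CUL9), beside 6.61% of all genes. They also called 5 members higher in the melanoma line than in the breast line, and the share of all genes for that is not given here. Among all calls, the share that was higher moved from 60.7% (737 higher, 478 lower) to 43.5% (854 and 1111) with total counts and to 50.7% with upper quartile. DESeq2 called 1263 genes higher (10.1%) and 868 lower (6.91%) in all, and the fit with no filter beyond 1 count 1046 and 850. Past a log2 fold of 0.32, 1 member was higher in the breast line (CUL1, beside 22.2% of all genes), 2 were higher in the melanoma line (CUL1 and CUL3, beside 17.8%) and 2 lower (CUL4B and CUL9, beside 32.5%), and past a fold of 2, 0 were lower there, beside 10.9%. TMM within each line, chosen after seeing the data, put 1 member (CUL1) past a fold of 1.5 in the melanoma line. Transcript lengths, also added later, gave FPKM ratios of CUL4A over CUL4B of 0.578 and 0.708 in the breast line and 0.895 and 1.27 in the melanoma line, control first, against 2.89, 3.54, 4.48 and 6.37 by exon length. Control and CPYPP were paired within a line by the block. No paired analysis by replicate number was made, since the labels give none. Leaving out a library would leave a line with no comparison, so it was not run. Counting error was wide for CUL9, with 335 to 681 counts.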
